A study of Mus musculus with 28 samples.

Results

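The RNA-seq libraries of C2C12 cells at 60 h in differentiation medium were set against those at 48 h, over all genes of the count table. The members are 6 of the series' 28 samples, 3 libraries at 60 h and 3 at 48 h, taken by the time in their titles. Of the 49089 genes in the table, 15303 were tested. C2C12 is an immortalised mouse muscle precursor line, unmodified here (genotype WT), and no mutation or drug separated the groups. Both groups had been grown in medium with 20% fetal bovine serum and then moved to medium with 3% horse serum. They differed in the time in that medium, and the other RNA-seq libraries of the series (growth medium, 12 h, 24 h and 96 h, 3 each) entered the same fit. The replicates are labelled biological with no description of separate cultures, so the p-values rest on a spread between libraries that may be technical.

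In low serum, myoblasts stop dividing, switch on the myogenic factor Myog, fuse, and fill with contractile protein, and some cells of a culture stay single. Dividing cells run through the G1/S transition, when cyclin E and the E2F factors drive the genes of DNA replication, and later through mitosis, whose genes are read under the MuvB and FoxM1 complexes. Sterol and fatty acid synthesis are driven together by the SREBP factors, and the chaperones of the endoplasmic reticulum by the unfolded protein response. In bulk libraries, a change in the share of cells of one kind and a change of RNA per cell cannot be told apart.

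Total counts were 25190013, 27771576 and 32760368 at 60 h, and 30627715, 27817019 and 24154680 at 48 h. In a principal component analysis of all 18 libraries the 60 h libraries lay at 31.1 to 35.1 on the first component and the 48 h libraries at 24.1 to 25.6, so the groups did not overlap. Markers of skeletal myotubes summed to 1390 to 1660 CPM (counts-per-million of the effective library size) at 60 h and to 807 to 873 at 48 h, and all 8 of them were higher at 60 h. Markers of proliferating myoblasts summed to 445 to 460 CPM at 60 h and 607 to 617 CPM at 48 h. The 4 endothelial markers together reached at most 0.115 CPM at 60 h and 0.165 CPM at 48 h, with Cdh5 at 0 throughout. Macrophage markers summed to 0.873 to 1.03 CPM at 60 h and 1.05 to 1.44 CPM at 48 h, with Adgre1 at 0. Neuron and glia markers summed to 44.1 to 46.6 CPM at 60 h and 46.7 to 52.0 CPM at 48 h. Adipocyte markers reached at most 9.21 and 8.83 CPM at these times, and bone and cartilage markers 5.91 and 8.77 CPM. In these lists all markers but Tubb3, Pparg and Sox9 were under 1 CPM in all 6 libraries. Reserve cell markers summed to 35.3 to 39.8 CPM at 60 h and 42.3 to 44.5 CPM at 48 h.

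Of the 15303 genes tested, 2425 (15.8%) were called higher at 60 h and 1732 (11.3%) lower, by edgeR's quasi-likelihood test at a Benjamini-Hochberg adjusted p under 0.05. Together these are 27.2% of the genes tested. Most changes were small: 254 genes (1.66%) rose and 331 (2.16%) fell by at least 1.5-fold, and 82 (0.536%) rose and 111 (0.725%) fell by at least 2-fold. The split between directions depended on the scaling, the filter and single libraries. Of the calls 58.3% were rises with TMM scaling, 45.4% with upper-quartile scaling (1787 higher, 2152 lower) and 24.3% with scaling to the total count (998 higher, 3101 lower), which moved the median log2 fold change of all genes by -0.10 (from 0.03). It was also below 50% with no count filter (44.8%) and with a minimum of 1 CPM in 3 libraries (47.1%), against 51.5% with RLE scaling. Without the first 48 h library it was 45.3% (1192 higher, 1437 lower), without the second 48 h library 50.0% (1603 higher), and without the third 24 h library 47.7% (2035 higher, 2233 lower). No gene called here was called in the other direction under any of 19 other settings.

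Tagln, which encodes the actin-binding protein transgelin, rose most among the protein-coding genes at or above a mean log2 CPM of 3. It had 155, 166 and 161 CPM at 60 h, against 53.8, 54.6 and 56 CPM at 48 h. The groups were far apart, with a log2 fold change of 1.55 ± 0.06 (standard error, SE, of the fit with 3 libraries per group; adjusted p = 1.84e-12). Angptl4, a secreted inhibitor of lipoprotein lipase, had 73.1, 95.6 and 70.0 CPM at 60 h, against 28.8, 30.0 and 31.5 CPM at 48 h (1.40 ± 0.09, adjusted p = 2.77e-10). The other 10 of the 12 largest rises were Col8a2, Myl4, Casq2, Nkd2, Mb, Tnni2, Tnnc1, Fkbp11, Sdf2l1 and Tnni1, with log2 fold changes of 1.11 to 1.35. Of these, Myl4, Casq2, Mb, Tnni2, Tnnc1 and Tnni1 encode proteins of the sarcomere, the calcium store and oxygen storage in muscle. Fkbp11 and Sdf2l1 encode proteins of the endoplasmic reticulum.

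Under the same limits the largest fall was that of Mvd, the mevalonate diphosphate decarboxylase of sterol synthesis. It had 23.7, 26.0 and 25.6 CPM at 60 h, against 57.7, 64.1 and 67.2 CPM at 48 h, a log2 fold change of -1.33 ± 0.08 (adjusted p = 2.39e-10). Cenpf, a kinetochore protein, had 55.6, 53.5 and 54.6 CPM at 60 h, against 130, 124 and 125 CPM at 48 h (-1.21 ± 0.06, adjusted p = 4.07e-12). The other 10 largest falls came to -0.98 to -1.27 on the log2 scale. Acat2, Lss, Fasn, Scd2 and Acss2 among them belong to sterol and fatty acid synthesis, and Cdc20, Cenpa, Aspm and Cenpe to mitosis. The remaining gene, Neurl1b, encodes a ubiquitin ligase of the Notch pathway. In all 24 genes every 60 h library lay on the same side of every 48 h library. Over all genes tested this was so for 26.6% upward and 19.5% downward.

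**Figure D1:**
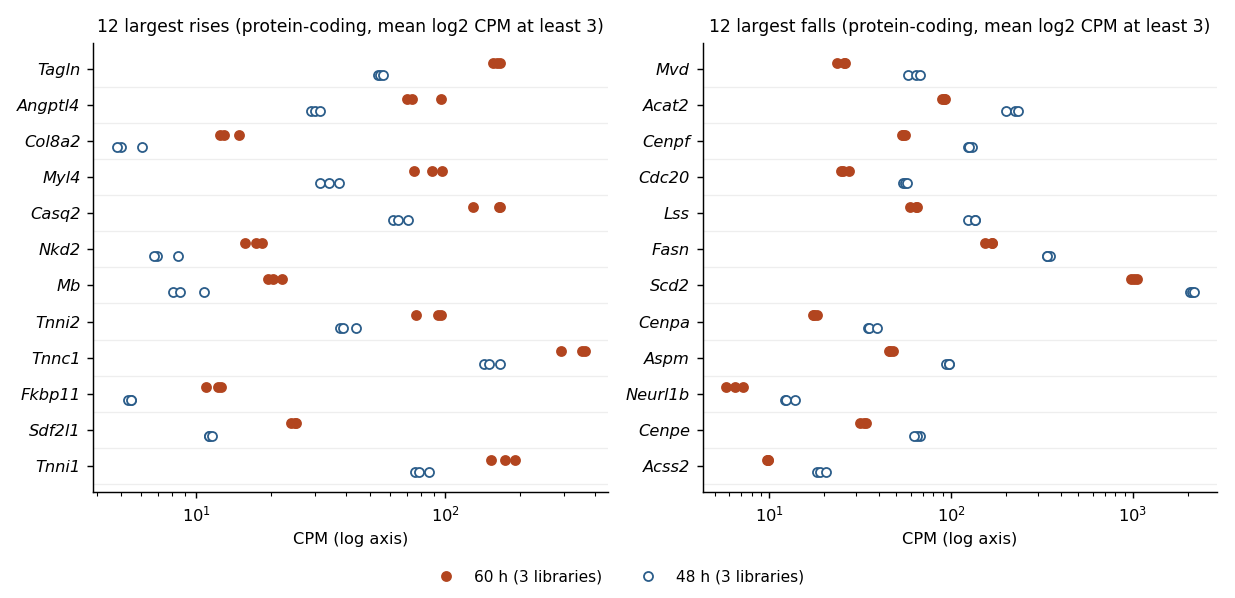
CPM in each library (log axis) of the 12 protein-coding genes at or above a mean log2 CPM of 3 with the largest rise (left panel) and the 12 with the largest fall (right panel); filled points are the 3 libraries at 60 h and open points the 3 at 48 h. The points of the 2 times do not overlap in any of the 24 genes, and Mvd, for example, sits at 23.7 to 26.0 CPM at 60 h and 57.7 to 67.2 CPM at 48 h.

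Genes of DNA replication and genes of mitosis moved in opposite directions. Of 37 replication genes tested, 31 rose and 0 fell, with a median log2 fold change of 0.37, against 15.8% higher and a median of 0.03 over all genes. Of 33 mitosis and kinetochore genes, 30 fell and 0 rose, with a median of -0.57, against 11.3% lower over all genes. Both medians kept their sign under the RLE, upper-quartile and total count scalings.

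Cdc6, which loads the replicative helicase on origins, had 13.3, 13.6 and 13.5 CPM at 60 h, against 7.11, 6.76 and 7.14 CPM at 48 h. Its log2 fold change was 0.94 ± 0.08 (adjusted p = 1.73e-08), with every 60 h library above every 48 h library. Mcm5, a subunit of that helicase, had 49.5, 55.1 and 53 CPM at 60 h, against 28.4, 34.9 and 28.7 CPM at 48 h (0.78 ± 0.08, adjusted p = 2.75e-07). Chaf1b, a subunit of the chromatin assembly factor that places histones behind the fork, averaged 16.2 CPM at 60 h and 9.05 CPM at 48 h. The 6 replication genes that were not called were Cdt1, Gins3, Orc1, Pole, Rfc4 and E2f2, with log2 fold changes of -0.02 (E2f2) to 0.30 (Cdt1, adjusted p = 0.0522).

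The E cyclins of the G1/S transition went with the replication genes. Ccne2, a cyclin E, had 32.9, 38.4 and 35.4 CPM at 60 h, against 14.8, 17.9 and 17.9 CPM at 48 h, a log2 fold change of 1.08 ± 0.10 (adjusted p = 7.1e-08). Ccne1 had 13.5, 16.6 and 16.5 CPM at 60 h, against 8.13, 9.55 and 7.97 CPM at 48 h (0.86 ± 0.09, adjusted p = 3.89e-07). Of the 10 genes of cyclins D and E and their kinases, with Cdc25a and Ccna2, 6 rose (60.0%, against 15.8% of all genes). In that list 2 fell (20.0%, against 11.3%), or 4 with total count scaling, and the median was 0.24. The 2 that fell were Cdk6, a partner of D cyclins (-0.55 ± 0.06), and Ccna2, cyclin A2 (-0.46 ± 0.04). Ccnd1, the D cyclin that responds to growth factors, was not called, with 87.0, 103 and 82.1 CPM at 60 h and 96.4, 96.8 and 98.6 CPM at 48 h (-0.10 ± 0.06, adjusted p = 0.257).

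Cdc20, the activator of the anaphase-promoting complex, had 24.8, 27.6 and 25.4 CPM at 60 h, against 54.2, 55.5 and 57.5 CPM at 48 h. All 60 h libraries lay below all 48 h libraries, and the log2 fold change was -1.10 ± 0.06 (adjusted p = 1.27e-10). Cenpa, the histone H3 variant of centromeres, had 18.2, 17.3 and 17.6 CPM at 60 h, against 35.1, 35.5 and 39.2 CPM at 48 h (-1.05 ± 0.07, adjusted p = 9.21e-10). Mki67, the proliferation antigen, fell by 0.85 ± 0.05 on the log2 scale, and Ccnb1, the mitotic cyclin B1, by 0.75 ± 0.06. Cdk1 (-0.08), Mad2l1 (-0.09) and Spc25 (-0.07) were the mitosis genes not called.

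Of 28 replication-dependent histone genes, whose transcripts build up in S phase, 20 fell (71.4%, against 11.3% of all genes) and 0 rose. Their median was -0.32, so they did not move with the replication genes. Hist1h1a, a linker histone, had 32.3, 32.3 and 31.9 CPM at 60 h, against 52.0, 51.7 and 50.5 CPM at 48 h (-0.68 ± 0.05, adjusted p = 1.26e-09). Values of single histone genes are uncertain, since near-identical copies can share reads. Of 8 condensin subunits 1 rose (12.5%, against 15.8% of all genes), Ncapg2 (0.37 ± 0.05). The 3 that fell (37.5%, against 11.3%) were Smc4, Ncapd2 and Ncapg, by 0.19 to 0.27, and 5 fell with total count scaling. The call of Ncapg was lost without the first or the second 60 h library (adjusted p = 0.0510 and 0.0711). Of 19 CDK inhibitors, pocket proteins and exit genes 2 rose and 2 fell (10.5% each way, against 15.8% higher and 11.3% lower over all genes), which is no more than the share of all genes. Cdkn1a, the p21 inhibitor, rose by 0.29 ± 0.05 and Gadd45a by 0.38 ± 0.07, while Cdkn2d fell by 0.32 ± 0.08 and Gadd45g by 0.38 ± 0.08.

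Both lists of the cell cycle were highest at 12 h and lowest at 96 h over the whole course. On log2 CPM relative to each gene's mean of the 6 groups, the median of the replication genes was 1.08 in growth medium, 1.27 at 12 h, -0.36 at 24 h, -0.40 at 48 h, 0.04 at 60 h and -1.51 at 96 h. That of the mitosis genes was 1.03 in growth medium, 1.55 at 12 h, 0.13 at 24 h, 0.02 at 48 h, -0.59 at 60 h and -2.16 at 96 h. These medians are given as a description. Ccne2 averaged 42.3 CPM in growth medium, 54.2 at 12 h, 16.2 at 24 h, 16.9 at 48 h, 35.6 at 60 h and 4.48 at 96 h.

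**Figure D2:**
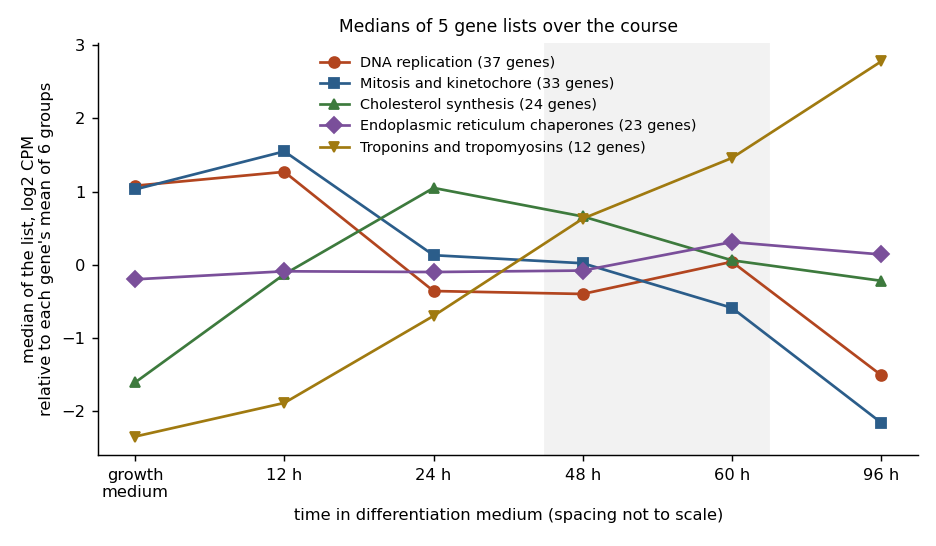
Median over the members of 5 gene lists of log2 CPM relative to each gene's mean of the 6 groups, by time (the spacing is not to scale); the grey band marks 48 and 60 h. The replication median is 0.04 at 60 h, against -0.40 at 48 h, the mitosis median is -0.59 at 60 h, against 0.02 at 48 h, and both are lowest at 96 h.

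Promoters of the 2 cell-cycle lists are shown because their members moved in opposite directions. The sequences are from RefSeq (GRCm38.p6), which gave a promoter, 250 bases before to 50 after the start, for 30 of the 37 replication genes and 28 of the 33 mitosis genes. The letters TTTGGCGC or TTTCGCGC of the E2F motif were found on either strand in 10 of the 30 replication promoters and 1 of the 28 mitosis promoters, and in 0.929% of the promoters of all 27025 genes in that table. The letters TTTGAA or TTCGAA of the cell cycle genes homology region (CHR), the element that MuvB complexes bind, were found in 21 of the 28 mitosis promoters (75.0%) and 7 of the 30 replication promoters (23.3%), against 21.7% of all. CCAAT was found in 22 of the 28 mitosis promoters (78.6%) and 41.1% of all. The 27025 genes include many that were not tested here. Of the tested genes with a promoter (68.7%), 1.84% held the E2F letters, 16.6% the CHR letters and 43.4% CCAAT. A match is a description of the letters and not of a bound site.

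The called members with the largest change that held each motif before the start are Mcm5 (chr8:75109336-75109387, plus strand), Mcm6 (chr1:128359725-128359835, minus strand), Cdc20 (chr4:118437344-118437381, minus strand) and Mki67 (chr7:135716452-135716515, minus strand), written 5′ to 3′ on the gene's strand, with the E2F or CHR letters in capitals (in Mcm5 and at the first place in Mcm6, 2 E2F matches on opposite strands overlap).
Mcm5: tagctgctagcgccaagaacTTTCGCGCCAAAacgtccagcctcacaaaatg
Mcm6: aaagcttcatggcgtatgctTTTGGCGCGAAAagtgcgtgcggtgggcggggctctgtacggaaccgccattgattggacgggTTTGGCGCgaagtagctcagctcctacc
Cdc20: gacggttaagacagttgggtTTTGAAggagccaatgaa
Mki67: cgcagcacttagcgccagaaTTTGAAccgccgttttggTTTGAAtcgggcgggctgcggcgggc
These stretches were chosen after the values were seen. Mcm5 and Mcm6 rose by 0.78 and 0.62 on the log2 scale, and Cdc20 and Mki67 changed by -1.10 and -0.85.

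Lipid synthesis fell almost throughout. Of 24 genes of cholesterol synthesis and its control, 23 fell and 0 rose (median -0.61), and of 14 genes of fatty acid synthesis, 13 fell and 0 rose (median -0.76). Among all genes tested, 11.3% were called lower and 15.8% higher. Lss, which closes the sterol rings as lanosterol synthase, had 59.8, 64.8 and 63.8 CPM at 60 h, against 124, 135 and 136 CPM at 48 h. The 60 h libraries were close to one another and all below the 48 h libraries (-1.07 ± 0.05, adjusted p = 2.63e-12). Nsdhl, a later sterol enzyme, fell by 0.96 ± 0.06. Ebp, a sterol isomerase, was the gene of the list that was not called (0.12 ± 0.06, adjusted p = 0.197).

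Fasn, fatty acid synthase, had 154, 167 and 167 CPM at 60 h, against 338, 348 and 335 CPM at 48 h (-1.06 ± 0.07, adjusted p = 8.75e-10). Scd2, a stearoyl-CoA desaturase, had 1010, 973 and 1060 CPM at 60 h, against 2050, 2110 and 2170 CPM at 48 h (-1.06 ± 0.05, adjusted p = 8.46e-12). In both genes the groups were about a factor of 2 apart with little spread within each. Elovl6, which lengthens palmitate, and Acss2, which makes acetyl-CoA from acetate, each fell by 0.98. Elovl1 was not called (-0.13 ± 0.06, adjusted p = 0.150). Mvd averaged 8.39 CPM in growth medium, 22.4 at 12 h, 94.2 at 24 h, 63.0 at 48 h, 25.1 at 60 h and 29.2 at 96 h, so its highest level was at 24 h. RefSeq's table gave promoters for 16 of the 24 cholesterol genes, too few for a count of motifs in that list.

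**Figure D3:**
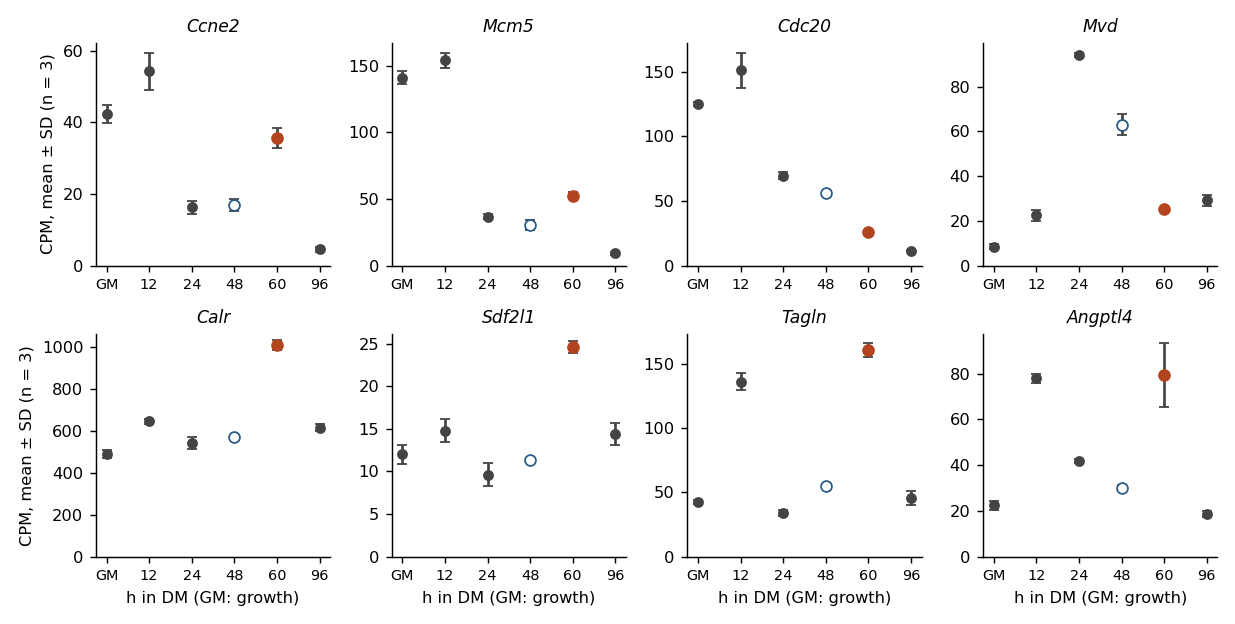
CPM (mean and SD of 3 libraries; each vertical axis starts at 0) of 8 genes in growth medium (GM) and at 12, 24, 48, 60 and 96 h in differentiation medium (DM), with 48 h as an open and 60 h as a coloured point. Ccne2 and Mcm5 are higher at 60 h than at 48 h but below growth medium, Cdc20 falls, Mvd peaks at 24 h, Calr and Sdf2l1 are highest at 60 h, and Tagln and Angptl4 are high at 12 h and at 60 h.

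Chaperones of the endoplasmic reticulum rose. Of 23 genes tested, 16 rose (69.6%, against 15.8% of all genes) and 2 fell (8.7%, against 11.3%), with a median of 0.29. Sdf2l1, a partner of the chaperone BiP, had 23.9, 24.8 and 25.2 CPM at 60 h, against 11.2, 11.2 and 11.6 CPM at 48 h. The groups were more than a factor of 2 apart (log2 fold change 1.12 ± 0.09, adjusted p = 1.74e-08). Calr, the calcium-binding chaperone calreticulin, had 982, 1020 and 1030 CPM at 60 h, against 565, 574 and 573 CPM at 48 h (0.82 ± 0.04, adjusted p = 2.04e-11). The disulfide isomerases Pdia6 and Pdia4 rose by 0.73 ± 0.04 and 0.69 ± 0.04. Hspa5, which encodes BiP itself, averaged 821 CPM at 60 h and 675 CPM at 48 h (0.28 ± 0.05, adjusted p = 0.000134).

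The other 7 genes of the list were not called higher, and they are grouped here by that outcome alone. Ern1, the sensor IRE1, fell by 0.21 ± 0.06 (adjusted p = 0.00848), and Syvn1, a ubiquitin ligase of the reticulum, by 0.32 ± 0.10 (adjusted p = 0.0203), a call lost without the first 48 h library or the second 60 h library (adjusted p = 0.0565 and 0.0768). Xbp1 (-0.01), Atf6 (-0.01), Edem1 (0.00), Sel1l (0.07) and Dnajb9 (0.11) were not called. Calr averaged 490 CPM in growth medium, 644 at 12 h, 541 at 24 h, 571 at 48 h, 1010 at 60 h and 614 at 96 h.

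A promoter was found for 20 of the 23 chaperone genes, and the ER stress response element (CCAAT, then 9 bases of any kind, then CCACG), searched on both strands, was in 8 of them, against 37 (0.137%) of the 27025 promoters. The 2 called members with the largest change that held it before the start, shown for the order of its CCAAT and CCACG ends (capitals), were Calr (chr8:84847055-84847113, minus strand, where the element reads on the opposite strand) and Pdia6 (chr12:17266471-17266529, plus strand).
Calr: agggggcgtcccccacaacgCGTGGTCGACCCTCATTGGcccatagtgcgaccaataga
Pdia6: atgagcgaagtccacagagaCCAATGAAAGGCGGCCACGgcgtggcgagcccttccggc
Calr and Pdia6 rose by 0.82 and 0.73 on the log2 scale.

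Of 27 genes of ATF4 targets and amino acid supply, 13 rose (48.1%, against 15.8% of all genes) and 3 fell (11.1%, against 11.3%). The median was 0.20. Pycr1, of proline synthesis, averaged 5.49 CPM at 60 h and 2.85 CPM at 48 h (0.95 ± 0.14, adjusted p = 6.16e-05). Phgdh, the entry enzyme of serine synthesis, had 163, 155 and 159 CPM at 60 h, against 109, 112 and 105 CPM at 48 h (0.55 ± 0.06, adjusted p = 3.16e-07), and Aldh1l2, of mitochondrial folate metabolism, rose by 0.65 ± 0.06. The fallen members were Chac1, Slc38a2 and Slc7a1, a glutathione-degrading enzyme and 2 amino acid transporters, at -0.20 to -0.33. Without the first 48 h library, or without the second or the third 60 h library, 1 member was called lower in place of 3, and Chac1 also lost its call without the second 48 h library (adjusted p = 0.0734).

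Genes of the contractile apparatus rose. Over 6 lists of sarcomere genes, 45 of the 70 tested (79 listed) rose and 2 fell, with a median of 0.56. Among all genes tested, 15.8% were called higher and 11.3% lower. Myog, the myogenic factor of terminal differentiation, had 400, 355 and 410 CPM at 60 h, against 240, 248 and 258 CPM at 48 h (0.64 ± 0.06, adjusted p = 9.67e-08). Of 14 myogenic transcription factors 3 rose (21.4%, against 15.8% of all genes), namely Myog, Mef2c and Tead4. In that list 4 fell (28.6%, against 11.3%), among them Mef2d, Tead1 and Bhlhe40, and the median was -0.03. The call of Mef2d was lost without the third 60 h library (-0.20, adjusted p = 0.0814). Myod1, the determination factor, had 78.1, 76.1 and 73.3 CPM at 60 h and 70.4, 74.7 and 70.9 CPM at 48 h, and the groups overlapped (0.07 ± 0.07, adjusted p = 0.465). Myf5 was at 44.3, 46.4 and 46.0 CPM at 60 h and 53.8, 51.0 and 47.0 CPM at 48 h, and just missed the threshold (-0.15 ± 0.06, adjusted p = 0.0503). Myf6 was near the detection limit in both groups, at 0.267 to 0.460 CPM at 60 h and 0.191 to 0.608 CPM at 48 h.

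Of 9 sarcomeric myosin heavy chain genes 7 rose (77.8%, against 15.8% of all genes) and 0 fell (median 0.91). Myh3, the embryonic chain, had 257, 220 and 280 CPM at 60 h, against 129, 129 and 141 CPM at 48 h (0.93 ± 0.07, adjusted p = 1.92e-09), and Myh8, the perinatal chain, had 12.0, 8.67 and 11.1 CPM at 60 h, against 4.89, 5.37 and 5.94 CPM at 48 h (0.98 ± 0.14, adjusted p = 3.66e-05). The adult chains Myh1 and Myh7 rose by 0.91 ± 0.07 and 0.89 ± 0.12, while Myh4 was not called (0.30 ± 0.16, adjusted p = 0.163). These chains are close in sequence, so reads may be split between them. Myl4, an embryonic light chain, had 88.2, 74.6 and 96.7 CPM at 60 h, against 31.3, 34.2 and 37.3 CPM at 48 h (1.34 ± 0.08, adjusted p = 1.47e-10). It was 1 of 3 of the 6 light chain genes that rose.

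Of 12 troponins and tropomyosins 9 rose (75.0%, against 15.8% of all genes) and 0 fell (median 0.68). Tnnc1, the calcium-binding troponin of slow and cardiac fibres, had 352, 290 and 362 CPM at 60 h, against 143, 149 and 165 CPM at 48 h (1.14 ± 0.07, adjusted p = 1.36e-10). The slow and the fast inhibitory troponins moved alike in size, Tnni1 by 1.11 ± 0.07 and Tnni2 by 1.15 ± 0.09, and the difference between them was not tested. The tropomyosins Tpm1 and Tpm2 rose by 0.18 ± 0.04 and 0.34 ± 0.04, and Tpm1 lost its call with total count scaling (0.08, adjusted p = 0.126). Of 11 actins, tropomodulins and leiomodins 7 rose and 1 fell, the actin-binding Xirp2 (-0.55 ± 0.12, adjusted p = 0.00254). Acta1, skeletal actin, had 517, 455 and 535 CPM at 60 h, against 257, 270 and 260 CPM at 48 h (0.94 ± 0.07, adjusted p = 3.31e-09), and Actc1, cardiac actin, rose by 0.61 ± 0.07.

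Most genes of titin, the M-band and myosin-binding proteins rose, and those of the Z-disc were mixed. Of the 12 genes of the first list 10 rose (83.3%, against 15.8% of all genes), among them Mybph (0.94 ± 0.07), Myom1 (0.83 ± 0.09) and Myom3 (0.74 ± 0.08). Ttn, titin, had 2750, 2640 and 2500 CPM at 60 h and 3320, 2990 and 2610 CPM at 48 h, with overlapping groups (-0.18 ± 0.15, adjusted p = 0.409). Of 20 Z-disc genes 9 rose (45.0%, against 15.8% of all genes) and 1 fell (5.0%, against 11.3%). The median was 0.12, and 0.02 with total count scaling. Ankrd2, a stretch-responsive ankyrin repeat protein, had 8.69, 6.42 and 8.48 CPM at 60 h, against 2.13, 2.15 and 2.44 CPM at 48 h (1.82 ± 0.16, adjusted p = 4.36e-08), and its relative Ankrd1 fell by 0.19 ± 0.04. Tcap, which caps titin at the Z-disc, rose by 1.48 ± 0.22. Des, desmin, was not called (0.07 ± 0.05, adjusted p = 0.308).

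**Figure D4:**
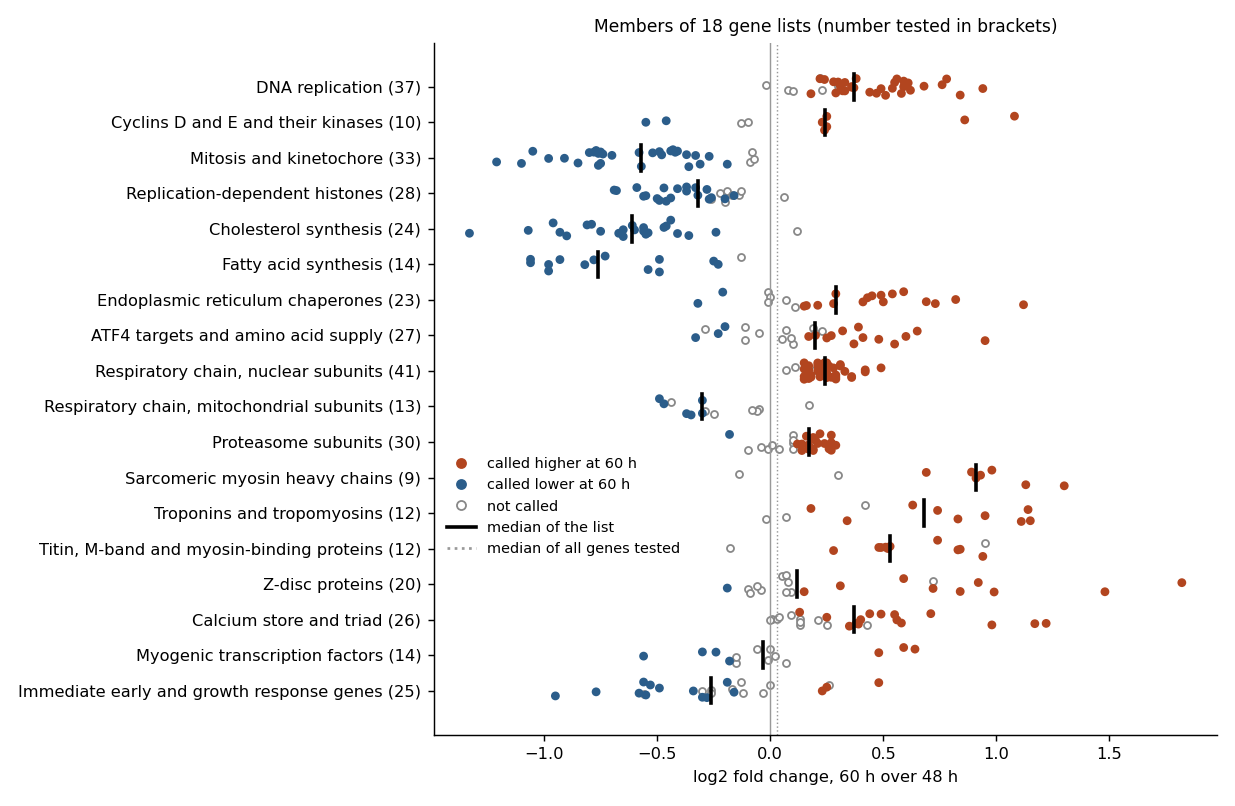
Log2 fold change (60 h over 48 h) of each tested member of 18 gene lists, with called members filled, members not called open, a black bar at each list's median and a dotted line at the median of all genes tested (0.03). The medians of the mitosis (-0.57), histone (-0.32), cholesterol (-0.61) and fatty acid (-0.76) lists lie left of 0 and those of the replication (0.37), chaperone (0.29) and nuclear respiratory (0.24) lists right of it, with single members across 0 in several of them.

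Of 26 genes of the calcium store and the triad, where the membrane signal reaches the store, 15 rose and 0 fell (median 0.37). The share that rose was 57.7%, against 15.8% of all genes. Casq2, a calcium buffer of the store, had 165, 129 and 164 CPM at 60 h, against 61.6, 64.5 and 70.9 CPM at 48 h (1.22 ± 0.08, adjusted p = 3.36e-10). Cacna1s, the voltage sensor, had 28.7, 24.8 and 28.4 CPM at 60 h, against 13.1, 12.7 and 15.6 CPM at 48 h (0.98 ± 0.09, adjusted p = 7.53e-08). The release channel Ryr1 (0.25 ± 0.09, adjusted p = 0.0535) and the calcium pump Atp2a2 (0.09 ± 0.04, adjusted p = 0.0790) were not called. Casq1 averaged 1.08 CPM at 60 h and 0.479 CPM at 48 h, a call that was lost without the second 48 h library (0.79, adjusted p = 0.0657). Mb, myoglobin, had 20.4, 19.4 and 22.0 CPM at 60 h, against 8.10, 8.62 and 10.7 CPM at 48 h (1.19 ± 0.10, adjusted p = 2.53e-08), and Ckm, the muscle creatine kinase, rose by 0.82 ± 0.09.

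Of 18 fusion genes 7 rose (38.9%, against 15.8% of all genes) and 2 fell (11.1%, against 11.3%). The median of 0.06 turned to -0.04 with total count scaling, where 4 rose and 5 fell. Mymk and Mymx, the fusogens myomaker and myomixer, rose by 0.53 ± 0.07 and 0.65 ± 0.07. Mymk had 78.6, 66.2 and 78.5 CPM at 60 h, against 50.0, 51.0 and 54.0 CPM at 48 h, and the groups did not overlap. Cav3, the muscle caveolin, rose by 1.32 ± 0.17, while Elmo1, a guanine nucleotide exchange partner in Rac signalling, fell by 0.73 ± 0.18. Of 14 satellite and reserve cell genes 5 fell (35.7%, against 11.3% over all genes) and 2 rose (14.3%, against 15.8%), with a median of -0.08. The 2 that rose were Vcam1 (0.15 ± 0.04) and Hey1 (0.25 ± 0.08), and neither was called with total count scaling. Both also lost their call without any 1 of the 48 h libraries (adjusted p = 0.0510 to 0.140 for Vcam1 and 0.0572 to 0.101 for Hey1), and Vcam1 without the third 60 h library (adjusted p = 0.0565). Pax7, the satellite cell factor, fell to 6.65, 5.81 and 6.54 CPM at 60 h, against 10.0, 8.73 and 9.08 CPM at 48 h (-0.55 ± 0.10, adjusted p = 0.000328).

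Promoters of sarcomere genes are shown for the motifs of the MyoD family and of MEF2. Of the 57 promoters found for the 70 genes, 37 (64.9%) held an E-box CAGCTG or CAGGTG, against 35.9% of the promoters of all 27025 genes, and 10 (17.5%) a MEF2 motif, against 2.16%. The 2 called members with the largest change that held each before the start were Myh8 (chr11:67277005-67277054, plus strand) and Myoz2 (chr3:123034991-123035040, minus strand) for MEF2, and Ankrd2 (chr19:42035867-42035925, plus strand) and Tnni1 (chr1:135799177-135799378, plus strand) for the E-box, with the motif in capitals.
Myh8: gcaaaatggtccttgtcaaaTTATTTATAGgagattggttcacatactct
Myoz2: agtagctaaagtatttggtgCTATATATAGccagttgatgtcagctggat
Ankrd2: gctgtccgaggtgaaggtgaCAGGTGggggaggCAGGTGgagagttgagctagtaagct
Tnni1: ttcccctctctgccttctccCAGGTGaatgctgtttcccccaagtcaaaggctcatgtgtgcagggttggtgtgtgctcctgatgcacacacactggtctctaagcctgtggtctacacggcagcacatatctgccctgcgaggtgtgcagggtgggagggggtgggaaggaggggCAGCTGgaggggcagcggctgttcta
The Myoz2 stretch lies 53 to 4 bases before the start. A match describes letters, and which factor reads them was not tested. The authors' ATAC-seq peak lists, 1 for 60 h and 1 for growth medium, were set against promoters by an overlap of at least 1 base. A 60 h peak lay over 54 of these 57 promoters (94.7%) and a growth medium peak over 37 (64.9%). Of the tested genes with a promoter (68.7%), the shares were 93.5% and 93.0%, so the 60 h share was near theirs. In 17 (29.8%) the peak was in the 60 h list alone, as in 668 (2.47%) of the 27025 promoters and 1.06% of those of tested genes. No list for 48 h was analysed here, so the peaks do not date the change within the course.

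The calls among nuclear and mitochondrial genes of the respiratory chain went in opposite directions. Of 41 nuclear subunits 38 rose (92.7%, against 15.8% of all genes) and 0 fell, with small changes (median 0.24, range 0.07 to 0.49). All 41 had every 60 h library above every 48 h library, as had 26.6% of all genes tested. Uqcrq, of complex III, had 18, 20.1 and 23.8 CPM at 60 h, against 14.1, 14.1 and 16.1 CPM at 48 h (0.49 ± 0.10, adjusted p = 0.000745), and Atp5g1, of the ATP synthase, rose by 0.42 ± 0.06. The count depended on the setting: without the first 48 h library 20 rose, and with total count scaling 21. Rises over all genes went from 2425 to 1192 and 998 in the same settings. Of the 13 mitochondrial subunits 6 fell (46.2%, against 11.3% of all genes), 0 rose and 7 were not called (median -0.30, range -0.49 to 0.17). The transcript mt-Nd2, of complex I, had 60.1, 59.2 and 61.9 CPM at 60 h, against 91.0, 80 and 82.9 CPM at 48 h (-0.49 ± 0.07, adjusted p = 2.28e-05), while mt-Co1 was not called (-0.06 ± 0.05, adjusted p = 0.371). Cox6a2, the muscle isoform of a complex IV subunit, rose by 0.93 ± 0.22.

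Other genes of energy supply and protein turnover showed small rises, whose number depended on the first 48 h library and on the scaling. Of 17 genes of the tricarboxylic acid cycle 10 rose and 0 fell (median 0.15), of 30 proteasome subunits 20 rose and 1 fell (median 0.17), of 45 cytosolic ribosomal proteins 21 rose and 1 fell (median 0.12), and of 26 ribosome biogenesis genes 10 rose and 1 fell (median 0.12). Without the first 48 h library the rises numbered 4, 8, 12 and 3 in that order of lists, and with total count scaling 3, 7, 11 and 2. Over all genes, rises numbered 2425 (15.8%) with all libraries and TMM scaling, and 1192 and 998 in these settings. Without the third 60 h library 13 proteasome and 13 ribosomal protein genes rose, and 5 genes of the cycle rose without the second 48 h library and 6 without the third. Fh1, fumarase, had 92.3, 90.8 and 92.7 CPM at 60 h, against 78.0, 73.0 and 71.5 CPM at 48 h (0.31 ± 0.04, adjusted p = 3.86e-05). Psmb6, a catalytic proteasome subunit, rose by 0.29 ± 0.06, and Rpl9 by 0.28 ± 0.04. Glycolysis did not rise as a list, with 3 of 23 genes higher (13.0%, against 15.8% of all genes). In that list 6 genes fell (26.1%, against 11.3%), or 13 with total count scaling, and the median was -0.10. Eno3, the muscle enolase, rose by 0.32 ± 0.04, and Eno1, the general enolase, fell by 0.33 ± 0.07. Aldoc fell to 3.03, 4.2 and 2.86 CPM at 60 h, against 8.00, 7.01 and 8.34 CPM at 48 h (-1.21 ± 0.16, adjusted p = 1.73e-05).

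Of 25 immediate early and growth response genes 3 rose (12.0%, against 15.8% of all genes) and 12 fell (48.0%, against 11.3%), with a median of -0.26. Without the first 48 h, the second 48 h, the second 60 h or the third 60 h library 1 rose. Atf3, a stress factor of the AP-1 family, had 7.86, 6.80 and 6.47 CPM at 60 h, against 13.7, 14.8 and 12.0 CPM at 48 h (-0.95 ± 0.10, adjusted p = 7.51e-07), and Myc fell by 0.56 ± 0.14. In the insulin-like growth factor axis (17 genes) 2 rose (11.8%, against 15.8% of all genes) and 8 fell (47.1%, against 11.3%), with a median of -0.27. Igfbp4 rose by 1.07 ± 0.09 and Igfbp5 fell by 0.63 ± 0.05, 2 binding proteins of the same ligands. Fst, the activin and myostatin antagonist follistatin, had 25.3, 25.6 and 28.1 CPM at 60 h, against 12.8, 13.8 and 15.7 CPM at 48 h (0.91 ± 0.09, adjusted p = 1.46e-07). Ifit1, an interferon response gene, fell to 2.12, 2.02 and 1.71 CPM at 60 h, against 3.40, 3.69 and 3.88 CPM at 48 h (-0.91 ± 0.14, adjusted p = 5.6e-05). In that list 5 of 17 genes fell (29.4%, against 11.3% of all genes) and 0 rose, and 3 fell without the third 60 h library.

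Of 23 collagen genes 6 rose (26.1%, against 15.8% of all genes) and 4 fell (17.4%, against 11.3%), with a median of 0.01 that turned below 0 with the RLE, upper-quartile and total count scalings. Col8a2, a short-chain collagen, had 12.9, 14.9 and 12.5 CPM at 60 h, against 4.99, 6.05 and 4.79 CPM at 48 h (1.35 ± 0.14, adjusted p = 4.39e-07), and Col18a1, of the basement membrane, fell by 0.43 ± 0.06. Of 24 matrix glycoproteins and proteoglycans 8 rose (33.3%, against 15.8% of all genes) and 4 fell (16.7%, against 11.3%), with a median of 0.03. With total count scaling 7 rose and 8 fell. Mfap5, of microfibrils, rose by 1.11 ± 0.12, Mgp by 0.70 ± 0.06 and Spp1, osteopontin, by 0.60 ± 0.05, while Fbln1, a fibulin, fell by 0.34 ± 0.08 and Thbs2, a thrombospondin, by 0.28 ± 0.05. Of 17 matrix proteases and inhibitors 3 rose (17.6%, against 15.8% of all genes) and 5 fell (29.4%, against 11.3%), with a median of 0.05. Without the second 48 h, the first 60 h or the second 60 h library 3 fell. Timp1, the metalloproteinase inhibitor, had 169, 178 and 179 CPM at 60 h, against 91.7, 96.7 and 98.0 CPM at 48 h (0.88 ± 0.05, adjusted p = 7.23e-11). Itgb7, an integrin beta chain, fell to 2.74, 3.78 and 2.76 CPM at 60 h, against 8.86, 7.55 and 8.17 CPM at 48 h (-1.41 ± 0.16, adjusted p = 1.93e-06).

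Tagln belongs to the cytoskeleton of smooth muscle, and Acta2, smooth muscle actin, rose too, by 0.28 ± 0.05. The 4 smooth muscle markers summed to 1450 to 1530 CPM at 60 h and 1140 to 1190 CPM at 48 h, with the defining markers Myh11 and Cnn1 under 1 CPM in all 6 libraries. Of 23 genes of that cytoskeleton 5 rose (21.7%, against 15.8% of all genes) and 3 fell (13.0%, against 11.3%), near the shares of all genes, with a median of 0.00. Tagln averaged 42.7 CPM in growth medium, 136 at 12 h, 33.9 at 24 h, 54.8 at 48 h, 161 at 60 h and 45.6 at 96 h, and Angptl4 22.5, 78.0, 41.8, 30.1, 79.6 and 18.7 CPM at the same times. Both were thus high at 12 h and at 60 h and lower at the times between and after.

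Outside protein-coding genes, H19, the imprinted long non-coding RNA, had 4900, 4730 and 5020 CPM at 60 h, against 2950, 3160 and 3330 CPM at 48 h (0.64 ± 0.06, adjusted p = 3.81e-07). Kcnq1ot1, another imprinted non-coding RNA, fell to 15.8, 16.8 and 15.4 CPM at 60 h, against 32.6, 27.1 and 26.2 CPM at 48 h (-0.84 ± 0.17, adjusted p = 0.00115). The predicted genes Gm7993 (0.61 ± 0.10) and Gm26853 (-0.82 ± 0.10) were also among the largest changes of that kind. The small RNA gene Gm24497 had 14.0, 13.6 and 11.6 CPM at 60 h and 36, 17.3 and 65.0 CPM at 48 h, and its call was lost without the third 48 h or the third 60 h library (adjusted p = 0.124 and 0.0665). Rn7s2, an RNA of the signal recognition particle, had 186000, 214000 and 198000 CPM at 60 h, against 139000, 159000 and 136000 CPM at 48 h (0.46 ± 0.10, adjusted p = 0.00183). Its copy Rn7s1 was not called (0.06 ± 0.16, adjusted p = 0.828), and reads of the 2 copies may be split between them.

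The make-up of the libraries differed with the time. Rn7s1 and Rn7s2 took 23.8 ± 0.623% of all counts at 60 h and 19.8 ± 0.530% at 48 h (SD, n = 3 each), and protein-coding genes 65.5 ± 0.355% at 60 h and 69.1 ± 0.563% at 48 h. Mitochondrial transcripts took 0.853 ± 0.0210% at 60 h and 1.06 ± 0.0547% at 48 h. In each of the 3 shares the groups did not overlap, and the two-sided exact permutation p was 0.1, the smallest that 3 against 3 libraries can give. Genes of short span were more often higher and genes of long span more often lower. Of the protein-coding genes tested, in 5 equal groups by span, 26.6% of the shortest group (0.309 to 7.99 kb) were called higher and 7.67% lower, against 8.03% higher and 23.8% lower in the longest group (70.2 to 2390 kb). The respiratory subunits of the nucleus, with a median span of 7.08 kb, lie in the range of the shortest group, whose median log2 fold change was 0.11. The part of span and library make-up in the counts above was not tested.

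**Figure D5:**
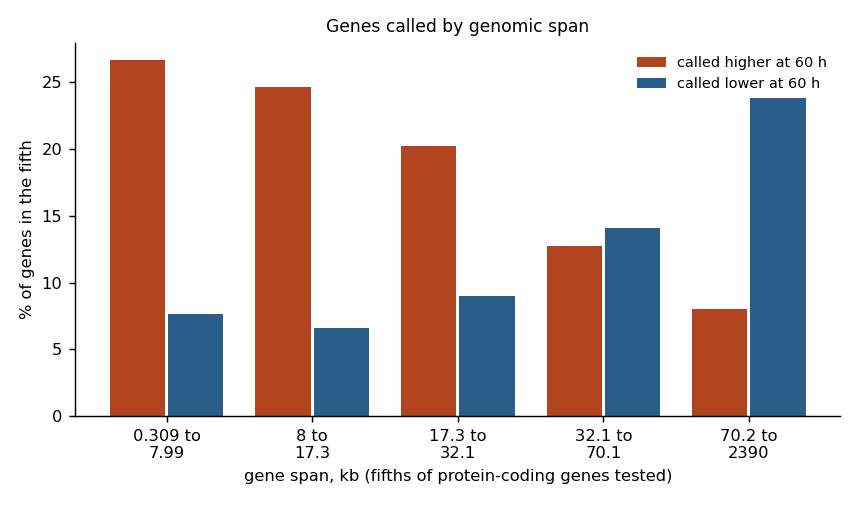
Share of protein-coding genes called higher (left bar of each pair) and lower (right bar) at 60 h, in 5 equal groups by the genomic span of the gene in RefSeq. The share called higher goes down from 26.6% in the shortest group to 8.03% in the longest, and the share called lower is 7.67% in the shortest and 23.8% in the longest.

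Most genes that stood apart in the third 24 h library were lower in every 60 h library, and not all of those were called. In 86 protein-coding genes (mean log2 CPM at or above 3) the third 24 h library stood at least 0.5 on the log2 scale above both other 24 h libraries, and that spread enters the common fit. Of these 86, with a median span of 87.3 kb, 45 (52.3%) were called lower and 0 higher, and 75 (87.2%) lay lower in every 60 h than in every 48 h library, with a median log2 fold change of -0.44. Of the other 9033 such genes, with a median span of 24.9 kb, 14.4% were called lower, 22.5% higher, and 22.6% lay lower in every 60 h library (median 0.05). Without the third 24 h library 75 were called lower. The 86 were picked by the spread of that library, so more calls without it follow from the choice and are no separate evidence of a fall. Polr2a, the largest subunit of RNA polymerase II, had 10.7, 10.4 and 9.89 CPM at 60 h and 16.3, 19.3 and 13.4 CPM at 48 h, which do not overlap, and it was not called (-0.67 ± 0.33, adjusted p = 0.138). Lrp1, a large endocytic receptor, had 306, 319 and 286 CPM at 60 h, against 496, 494 and 422 CPM at 48 h (-0.63 ± 0.19, adjusted p = 0.0201), and lost its call without the first or the second 48 h library or the first or the third 60 h library (adjusted p = 0.0510 to 0.0745).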

How the data were processed

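Total RNA was extracted with TRIzol and sequenced strand-specifically, per the labels' protocols. Deposited by the authors was 1 table of whole read counts, gene by gene, for 18 RNA-seq libraries; STAR, RSEM 1.3.0 and mm10 are named in the submitters' processing notes without their roles. The authors also deposited ATAC-seq broad peak lists with a fold enrichment (ratio) per peak; here their positions alone were used, and pooling of the 2 libraries behind a list was not stated.

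Counts were tested in R 4.3.3 by edgeR 4.0.16 (quasi-likelihood F test on 18 libraries after filterByExpr, with TMM scaling, no term but the group and 12 residual degrees of freedom), with p-values adjusted by Benjamini and Hochberg over 15303 genes and a threshold of 0.05. DESeq2 1.42.0, limma 3.58.1, other scalings and filters, a replicate term and fits without single libraries were alternatives. Total counts were 24154680 to 32760368 in the 6 libraries, where 3 counts correspond to 0.0953 to 0.125 CPM. On simulated counts for 15002 genes, 62 of 67 genes given a 1.5-fold change (92.5%) and 65 of 67 given a 2-fold change (97.0%) were called. The weakest genes were given no change, all genes had the same spread, and no library stood apart. These shares therefore do not carry over to weak genes or to genes of wider spread.

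Named genes were a panel of 25, the 12 largest called protein-coding changes each way at a mean log2 CPM of at least 3, 4 of other biotypes each way, up to 4 called genes per list and 3 against it, and those nearest the threshold. Members and lists were chosen with earlier results of these data known, and Hspa5, Mcm6, Mef2d, Tpm1, Tpm2, Cdc25a and uncalled list members were named after their values were seen. Promoters and spans came from RefSeq (GRCm38.p6). Promoters matched 68.7% of the tested genes, so shares given for tested genes cover that part alone, and called genes were not compared. Lists with at least 80% of members matched were used. The Hi-C files hold no 48 h map and were not used here. Some genes of the lists are not reported here by name.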

Additional observations from a re-analysis of the deposited data

How the results depend on the processing

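No gene called both here and under an alternative was called in the other direction. With total count scaling 998 genes were called higher and 3101 lower, of which 164 and 560 changed at least 1.5-fold, and 21 nuclear respiratory subunits rose. Against a 1.2-fold threshold (glmTreat) 270 genes were called higher and 254 lower, of which 169 and 160 changed at least 1.5-fold; 16 replication, 10 chaperone, 6 calcium store and 1 nuclear respiratory genes rose, and 9 histone genes fell. Leaving out 1 of the 6 libraries gave 1192 to 2054 genes higher and 1276 to 1682 lower, and without the first 48 h library 20 nuclear respiratory subunits rose (37 without the third 24 h library). Of 292 named genes called, 115 were called in all 19 alternatives, 223 without each of the 6 libraries, and 177 lost their call with glmTreat. Deviations of same-numbered libraries correlated at 0.00591, 0.0344 and -0.0485, within the range for different numbers (-0.0968 to 0.0885). So few pairs cannot show whether the numbers stand for shared cultures. With the replicate block 2359 genes were called higher and 1697 lower, and 12 named genes lost their call. The cause of these shifts was not tested. With 3 libraries per time, calls of genes near 1 CPM or with small changes are the least certain.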
